A study of Mus musculus with 26 samples.

Results

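The 7 genes described here are Dppa2, Dppa3, Dppa4 and Dppa5a, of the family of developmental pluripotency-associated genes, with Tdh, Fbxo15 and Mybl2. They were taken by name as rows of the deposited expression table, 7 of its 16718 genes, and each has 1 row there. RNA of mouse cells was sequenced in 26 libraries of a chemical reprogramming study, where small molecules turn fibroblasts into pluripotent stem cells. Mouse embryonic fibroblasts (MEF, day 0) gave 1 library. The course with all chemicals gave 1 library on each of days 6, 12, 18, 22, 30, 36 and 40, and the course lacking BrdU (bromodeoxyuridine, a thymidine analogue) gave 1 on each of the same 7 days. The course lacking Chir (an inhibitor of the kinase GSK3) was sampled once on each of the 5 days 6, 12, 18, 22 and 30. Chemically induced pluripotent stem cells (CiPSC) gave 6 libraries, and no source used here says whether these are lines, clones or cultures. The labels name no strain and no other chemical of the courses.

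Dppa2 and Dppa4 are SAP-domain proteins that bind DNA as a pair, are found in early embryos and embryonic stem cells, and keep developmental promoters open to activation. Dppa3, also called Stella, is an egg and germ cell protein that shields DNA methylation in the zygote and binds UHRF1, while Dppa5a is a KH-domain protein that binds RNA. Tdh is the mitochondrial threonine dehydrogenase on which mouse embryonic stem cells depend for glycine and acetyl-CoA. Fbxo15 is an F-box protein and a direct target of Oct4 and Sox2, long used as a reporter of reprogramming. Mybl2, or B-Myb, is a transcription factor of dividing cells that joins the MuvB complex at promoters of mitotic genes.

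Several members have near-identical copies in the genome, so the sequences are given first. In mm10, Dppa4 lies on the plus strand at chr16:48283733-48294237 (7 exons in its longest coding transcript by exon number) and Dppa2 follows at chr16:48303908-48319723 (8 exons), 9670 bases further on. Dppa3 lies at chr6:122626410-122630272 (plus strand, 4 exons) and Dppa5a at chr9:78367052-78368177 (minus strand, 3 exons). Among GENCODE M21 transcripts, copies of at least 90% identity over at least 300 bases numbered 6 for Dppa2, 2 for Dppa3, 2 for Dppa4 and 8 for Dppa5a. For each of these genes, 60 bases of coding sequence are shown with the same stretch of the copy closest to it, with capitals at the bases that differ. Each stretch was taken where gene and copy differ most within a single exon, so it is not typical of the alignment. Over all aligned coding bases, 6 of 903 were not identical for Dppa2, 6 of 363 for Dppa3, 3 of 529 for Dppa4 and 9 of 322 for Dppa5a. The Dppa2 stretch lies in exon 2 (chr16:48311603-48311662) and its copy is the processed pseudogene Gm9788 on chromosome 19, with 99.3% identity over 906 bases.
Dppa2: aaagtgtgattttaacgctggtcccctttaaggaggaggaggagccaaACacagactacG
Gm9788: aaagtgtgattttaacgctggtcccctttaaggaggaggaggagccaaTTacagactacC
The Dppa3 stretch lies in exon 2 (chr6:122628606-122628665) and its copy is the transcribed pseudogene Dppa3-ps on chromosome X, with 98.4% identity over 366 bases.
Dppa3: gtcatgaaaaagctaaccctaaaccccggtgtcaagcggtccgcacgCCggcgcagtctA
Dppa3-ps: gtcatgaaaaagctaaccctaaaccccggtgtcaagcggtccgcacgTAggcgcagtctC
The Dppa4 stretch lies in exon 5 (chr16:48291014-48291073) and its copy is the pseudogene Gm14058 on chromosome 2, with 99.4% identity over 532 bases.
Dppa4: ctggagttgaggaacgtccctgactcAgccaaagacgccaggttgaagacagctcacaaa
Gm14058: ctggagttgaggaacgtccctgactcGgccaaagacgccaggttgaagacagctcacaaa
The Dppa5a stretch lies in exon 2 on the minus strand (chr9:78367722-78367781) and its copy is the transcribed pseudogene Gm15310 on chromosome 16, with 97.2% identity over 325 bases.
Dppa5a: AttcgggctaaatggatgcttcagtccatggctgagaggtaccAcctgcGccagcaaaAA
Gm15310: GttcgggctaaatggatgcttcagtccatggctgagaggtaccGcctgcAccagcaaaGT
Of all these copies, 1 has a row in the deposited table, Pigp, whose annotated transcripts include a stretch 95.9% identical to Dppa5a over 417 bases. Gm15310 (chr16:94358941-94359312) lies inside Pigp (chr16:94358763-94371842) on the same strand. The same sequence may therefore be counted under both names among the 8. Pigp stood at 39 to 210 over the 26 libraries, with 100 in MEF and 39 to 110 in CiPSC, where Dppa5a went from 1 to 8307 or more. How reads that fit both a gene and its copy were shared is not given in the sources used here, so the levels of these 4 genes may hold some reads of their copies.

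Tdh lies at chr14:63492347-63509092 (minus strand, 9 exons) and has 1 copy past those limits, the transcribed pseudogene Gm13929 on chromosome 2, with 97.6% identity over 581 bases. Mybl2 lies at chr2:163054687-163084688 (plus strand, 14 exons) and has 1 as well, the pseudogene Gm3320 on chromosome 17, with 99.8% identity over 472 bases. Their levels may therefore hold reads of these copies too. Fbxo15 has no such copy. Mybl2 is the only member with an entry in the RefSeq promoter table used here (GRCm38.p6). Its promoter is shown because Mybl2 is the cell cycle member of the group and promoters of such genes often carry E2F motifs. The 250 bases before the RefSeq start (chr2:163054385-163054634, plus strand) hold 1 match to the E2F motif GGCGGGA, 13 bases before the start, and 4 matches to the GC box CCGCCC on either strand, at 144, 100, 59 and 32 bases before it. Capitals mark these matches, none of which overlap.
Mybl2 promoter: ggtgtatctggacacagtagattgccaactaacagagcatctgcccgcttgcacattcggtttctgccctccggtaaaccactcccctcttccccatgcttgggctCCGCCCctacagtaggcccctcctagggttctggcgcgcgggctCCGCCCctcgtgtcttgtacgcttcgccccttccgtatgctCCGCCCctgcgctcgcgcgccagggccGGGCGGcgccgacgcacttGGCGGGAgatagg
Searched on both strands, the E2F motif occurs in 9.76% of the 27025 promoters of the table and the GC box in 32.9%. The window holds no match to TTTGAA (the core of the CHR element, in 16.3% of promoters), CCAAT (34.5%) or the octamer ATGCAAAT (1.61%). It has 23 CpG dinucleotides, where the median promoter has 6 and 13.0% have at least as many as Mybl2. These matches describe the letters of this window only.

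Values in the table are normalized scores, not counts, so the depth is unknown. Their distribution is nearly the same in every library except at the low end, where the share of genes at 0 differs. CiPSC libraries had 10.4% to 14.2% of genes at 0, and MEF had 10.8%. On days 36 and 40 this share was 6.04% and 5.59% with all chemicals, against 9.56% and 9.83% without BrdU. What these differing shares do to values near 0 was not tested. Totals lay between 4143561 and 4162600, and exactly 10 genes in each library hold the highest value, 21988. Whether the values are scaled to gene length is not given in the sources used here, so levels are compared between libraries within a gene, and between genes only as a percentage of each gene's own CiPSC mean. The 12 fibroblast markers checked summed to 75336 in MEF and to 193 to 617 in CiPSC, where Lum and Fap stood at 0. The 6 pluripotency markers (Pou5f1, Nanog, Sox2, Zfp42, Esrrb, Utf1) summed to 12447 to 19056 in CiPSC and to 12 in MEF. Each day of a course is a single library, which makes the days the only repeats. Successive days are not independent, the p-values can be too small, and they measure the spread between these libraries only. In bulk RNA, fewer cells of a type and less RNA per cell cannot be told apart.

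In the full course all 7 genes were higher on day 40 than in MEF, 6 of them had a rising trend, and none reached its CiPSC mean. Dppa3 came closest, at 53.96% of that mean on day 40, and Dppa5a stayed lowest, at 6.60%. Without BrdU none of the 7 passed 1.32% of the CiPSC mean on any day, and without Chir none passed 1.43%. Tdh and Mybl2 were the first to reach 10% of their CiPSC means and Dppa2 the last of those that did.

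**Figure D1:**
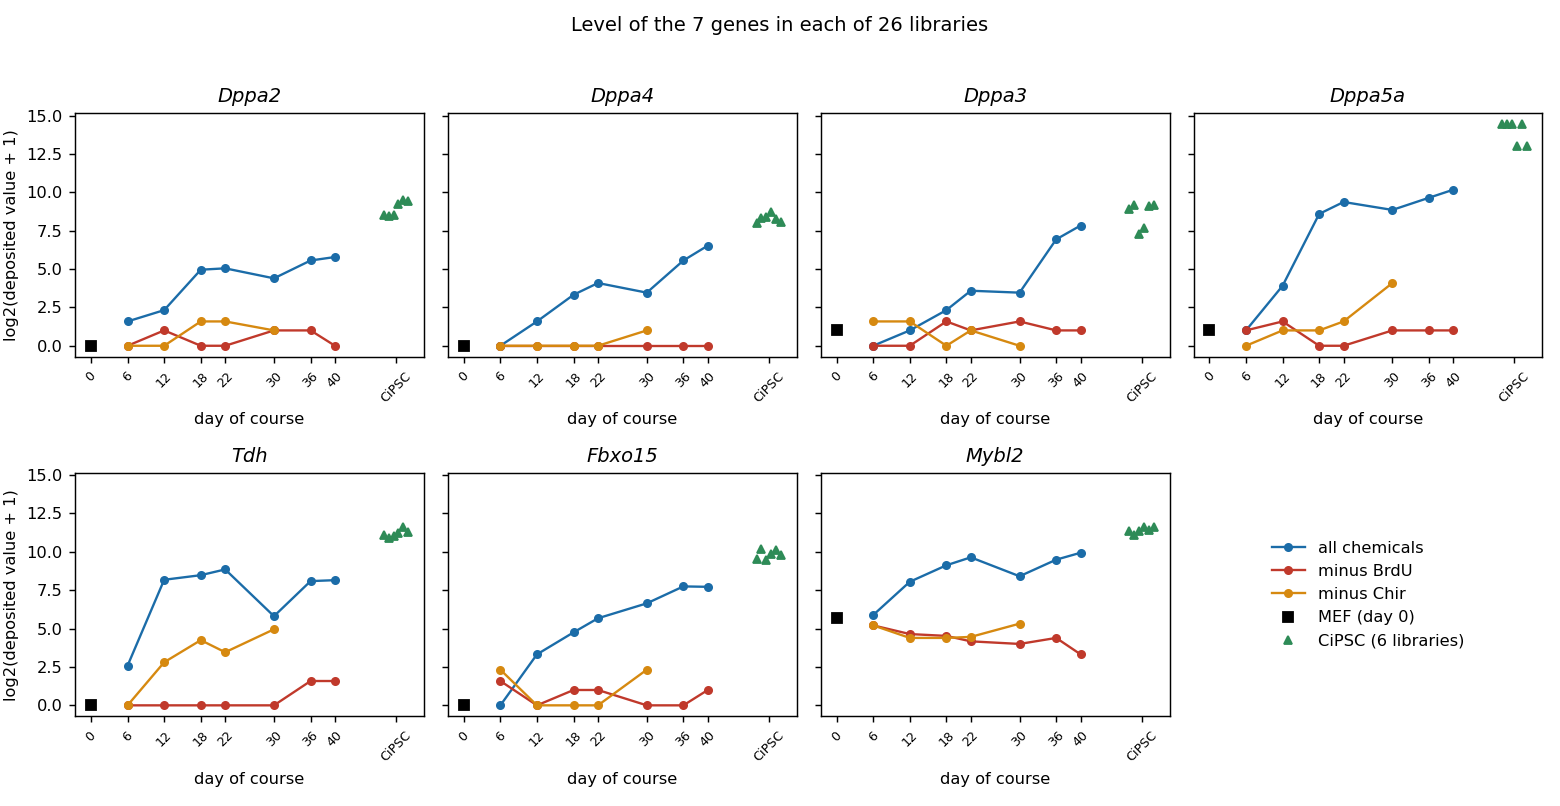
Level of each gene in the 26 libraries, as log2(deposited value + 1), against day of the course. Squares are MEF, lines with dots are the 3 courses (1 library per day) and triangles are the 6 CiPSC libraries. On day 40 the course with all chemicals lies above MEF in all 7 panels and under every CiPSC library in all but that of Dppa3, while without BrdU no gene passes its MEF level by more than 2 units and without Chir Tdh reaches 30 and Dppa5a 16.

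Dppa2 stood at 0 in MEF and at 2, 4, 30, 32, 20, 46 and 54 on the 7 days of the full course. Dppa4, its binding partner, stood at 0 in MEF and at 0, 2, 9, 16, 10, 46 and 91. Both had most of their gain after day 12 and both stood lower on day 30 than on day 22. The slope over MEF and the 7 days was 1.36 ± 0.24 log2 units per 10 days for Dppa2 (limma adjusted p = 0.00712) and 1.62 ± 0.20 for Dppa4 (limma adjusted p = 0.00222). All errors of slopes and differences are moderated standard errors.

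Dppa3 stood at 1 in MEF and at 0, 1, 4, 11, 10, 121 and 227 over the full course. Nearly all of its gain fell between days 30 and 40, and its slope was 1.85 ± 0.27 (limma adjusted p = 0.00376). Dppa5a stood at 1 in MEF and at 1, 14, 384, 659, 460, 798 and 1150. Its gain began by day 12 and its slope, 2.50 ± 0.39 (limma adjusted p = 0.00481), was the steepest of the 7.

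Tdh, the threonine dehydrogenase, stood at 0 in MEF and at 5, 289, 356, 462, 55, 272 and 284. It was high by day 12, was at its peak on day 22 and stood at 55 in the single day 30 library. Its slope of 1.58 ± 0.56 was not called (limma adjusted p = 0.0828). Fbxo15, the F-box protein, stood at 0 in MEF and at 0, 9, 26, 50, 99, 214 and 210. It was the only member that stood higher on day 30 than on day 22, and its slope was 2.12 ± 0.21 (limma adjusted p = 0.00183). Mybl2 stood at 50 in MEF, the one member with a level above 1 there, and at 58, 264, 557, 798, 339, 718 and 982. Its slope was 1.002 ± 0.20 (limma adjusted p = 0.0122).

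So 6 of 7 members rose with day, beside 9.31% of the 16314 genes tested that were called higher. The median slope of the members was 1.62, and that of all genes was 0.01. Over MEF and days 6 to 30 alone, 2 of the 7 were called, Dppa5a and Fbxo15. The slopes there were 1.69 for Dppa2, 1.504 for Dppa4, 1.25 for Mybl2 and 1.17 for Dppa3 (limma adjusted p = 0.0502 to 0.107), and 1115 genes were called against 2729. Leaving out MEF or any 1 day left all 6 calls in place. The summed level of 10 extraembryonic endoderm markers was 4347 in MEF and 3136 to 17550 over the full course, highest at day 22. In MEF Sox17, Afp and Apoa1 stood at 0, so a sum of that size comes from other markers and does not by itself show endoderm. The fibroblast sum was lowest at day 22, at 4338, and 21034 at the end. Their part in these trends was not tested.

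A gene was said to have come on at the first day it reached 10% of its CiPSC mean. Tdh came on by this measure on day 12 (12.1%), Mybl2 on day 18 (20.4%), Fbxo15 on day 30 (10.6%), and Dppa3 and Dppa4 on day 36 (28.8% and 14.4%). Dppa2 did so on day 40 (10.4%), and Dppa5a did not. At a threshold of 5% Dppa2 came on by day 18, before Fbxo15 and Dppa4 (both day 22) and Dppa3 (day 36), so its place in the order depends on the threshold. With 1 library per day, these days have no error. Because Dppa5a lies at or near the ceiling of the table in CiPSC, its percentages may be overstated.

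**Figure D2:**
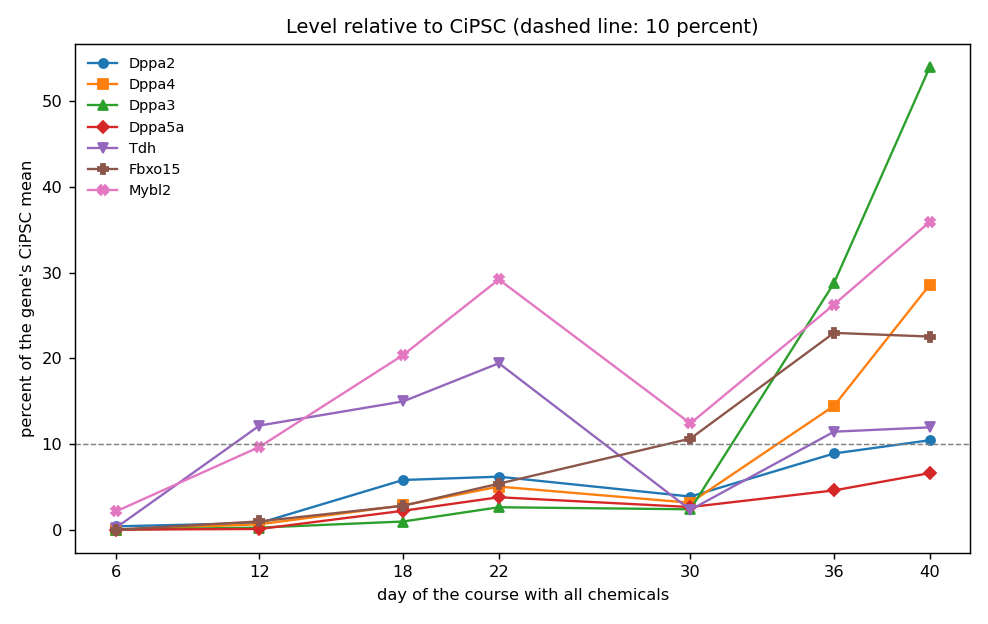
Level of each gene in the course with all chemicals as a percentage of the mean of its 6 CiPSC libraries, by day, with a dashed line at 10%. Tdh and Mybl2 pass the line by day 18, Dppa3 and Dppa4 pass it on day 36, and Dppa5a stays under it at 6.60% on day 40.

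The step from day 22 to day 30 went down for 6 of the 7 genes. Tdh went from 462 to 55 and Mybl2 from 798 to 339, while Fbxo15 went from 50 to 99. Dppa5a went from 659 to 460, Dppa2 from 32 to 20, Dppa4 from 16 to 10 and Dppa3 from 11 to 10. The median change of the members was -0.63 log2 units, where the median of all 16314 genes was 0 and 46.2% of them were lower. All 18 mitotic target genes examined were lower on day 30 too (median -0.80), as were 16 of 26 pluripotency-associated genes (median -0.48). On the same step the fibroblast marker sum went from 4338 to 18909. From day 30 to day 36 all 7 members went up (median 1.16), beside 6967 of the 16314 genes. On that step 23 of 26 pluripotency-associated genes and 15 of 18 mitotic targets went up too. Each of these days is 1 library, so the step has no test.

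**Figure D3:**
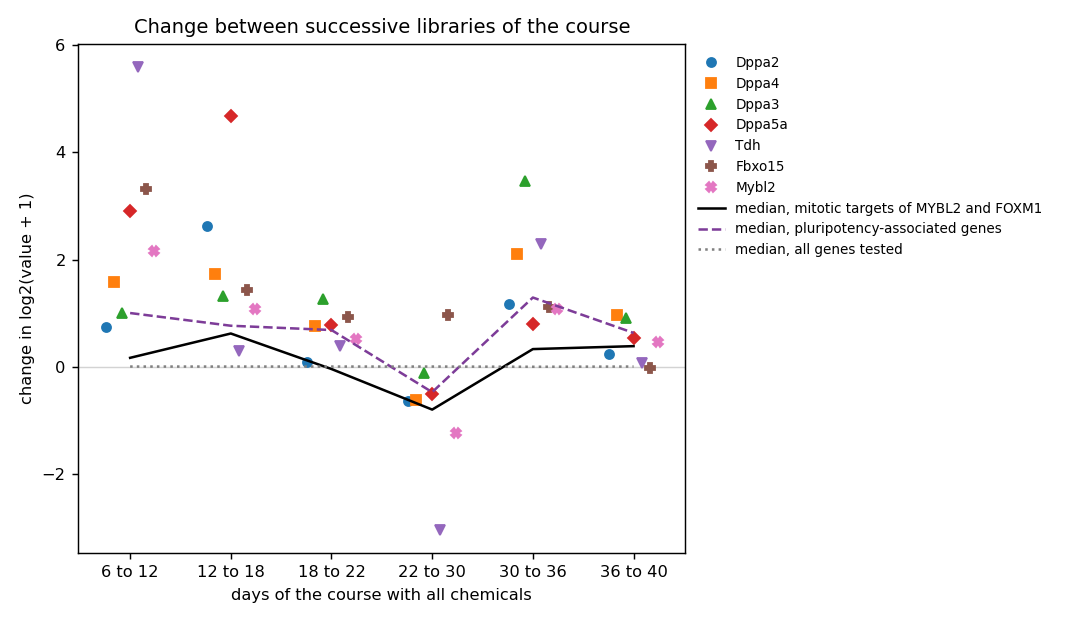
Change in log2(value + 1) between successive libraries of the course with all chemicals. Points are the 7 genes, and lines are the medians of the mitotic target list (solid), the pluripotency list (dashed) and all genes tested (dotted). From day 22 to day 30 all genes but Fbxo15 lie under 0 and Tdh lies lowest, and from day 30 to day 36 all 7 lie above 0.

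A direct comparison of days 30 to 40 with days 12 to 22 of the full course (3 libraries each) called 1 of the 7 genes, Fbxo15. Its values were 99, 214 and 210 against 9, 26 and 50, a difference of 2.79 ± 0.60 log2 units (limma adjusted p = 0.0220), beside 6.81% of genes called higher. Without day 18, 36 or 40 the difference was 2.87, 2.60 or 2.61, and was no longer called with these fewer libraries (limma adjusted p = 0.0822, 0.0912 and 0.0982). Dppa3 (10, 121 and 227 against 1, 4 and 11) overlapped by 1 library and missed the threshold at 3.77 ± 1.15 (limma adjusted p = 0.0689), but passed it without day 30 (0.0191). Tdh went the other way (55, 272 and 284 against 289, 356 and 462) by -1.15 ± 0.60, which was not called (limma adjusted p = 0.238). Mybl2 differed by 0.34 ± 0.49, within its spread (limma adjusted p = 0.682).

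The genes around these pathways were examined as lists, each described by its calls and its median slope beside the 0.01 of all genes. Of 26 pluripotency-associated genes 20 rose and none fell over the full course (median slope 1.55), among them Zfp42 at 1.96 ± 0.23, Pou5f1 at 2.35 ± 0.30 and Esrrb at 1.95 ± 0.27. Fgf4 (1.54 ± 0.46, adjusted p = 0.0517) and Tdgf1 (1.02 ± 0.51, adjusted p = 0.210) did not pass. Of 16 germ cell genes, the setting in which Dppa3 is best known, 9 rose (median 1.06), with Dazl, a germ cell RNA-binding protein, at 2.43 ± 0.34 and Hormad1, of meiotic chromosomes, at 2.10 ± 0.31. Of 9 genes of the 2-cell stage, where Dppa2 and Dppa4 are known to act, 5 rose (median 0.73), led by Zscan4f at 1.93 ± 0.34 and Zscan4c at 1.60 ± 0.31, members of a family of near-identical copies whose reads may be split.

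Of 11 genes of the DNA methylation machinery 3 rose (median 0.20). These were Tet1, which oxidizes methylcytosine (0.92 ± 0.14), Dnmt3l, a cofactor of new methylation (1.42 ± 0.25), and Uhrf1, the binding partner of Dppa3 (0.50 ± 0.09). Of 20 genes of threonine, serine, glycine and one-carbon metabolism 4 rose (median 0.13), led by Amt of the glycine cleavage system (1.20 ± 0.18) and Shmt1 (0.42 ± 0.08). Gldc, of the same system, stood at 8 in MEF, at 324 by day 12 and at 395 on day 40, and was not called (1.13 ± 0.35, adjusted p = 0.0533).

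Around Mybl2 few genes had a called trend over the full course. Of 13 MuvB and DREAM complex genes, E2f4 rose (0.26 ± 0.06) and Rbl2 fell (-0.42 ± 0.09). Of the 18 mitotic targets only Kif23, a kinesin of cell division, was called (0.50 ± 0.08, limma adjusted p = 0.00530), and the median slope was 0.16. All 18 were, however, higher on day 18 than on day 12 (median 0.62) and lower on day 30 than on day 22. Of all 16314 genes, 7530 were higher on the first of these steps and 46.2% were lower on the second. Of 12 genes of the SCF ubiquitin ligase, the complex that F-box proteins join, Skp2 (0.32 ± 0.07) and Fbxo5 (0.32 ± 0.09) rose. Of 6 maternal KH-domain and related genes, 1 rose, Ooep (0.97 ± 0.18).

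Without BrdU 6 of the 7 genes stayed between 0 and 2 on every day, and Mybl2 stayed under its MEF level. Dppa4 was listed at 0 on all 7 days, and Dppa2 stood at 0, 1, 0, 0, 1, 1 and 0. Dppa3 stood at 0, 0, 2, 1, 2, 1 and 1, and Dppa5a at 1, 2, 0, 0, 1, 1 and 1. Tdh stood at 0 on the 5 days to day 30 and at 2 on days 36 and 40. Fbxo15 stood at 2, 0, 1, 1, 0, 0 and 1. Mybl2, the only one with a level to lose, stood at 36, 24, 22, 17, 15, 20 and 9, all under its 50 in MEF.

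Across the 7 days all 7 genes were called lower without BrdU than with all chemicals, beside 21.5% of the 16308 genes tested that were called lower. Tdh differed by -6.71 ± 0.69 log2 units (limma adjusted p = 0.000514) and Dppa5a by -6.56 ± 1.17 (limma adjusted p = 0.00288). Mybl2 differed by -4.33 ± 0.59 (limma adjusted p = 0.00104) and its highest value without BrdU, 36, lay under its lowest with all chemicals, 58. Tdh (at most 2 without BrdU, at least 5 with all chemicals) did not overlap between the courses either. Nor did Dppa2, at 1 or less against 2 or more, a narrow gap at low values. The share of all genes without overlap was not counted, so these gaps are not read as particular to the members. Dppa2 differed by -3.80 ± 0.61 (limma adjusted p = 0.00189). Fbxo15 differed by -4.47 ± 0.99 (limma adjusted p = 0.00719), with day 6 in the opposite direction (2 without BrdU, 0 with it). Dppa4 was lower on 6 of 7 days, with both courses at 0 on day 6 (limma adjusted p = 0.00597), and no fold is given against a course at 0.

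Dppa3 differed by -2.71 ± 0.86 (limma adjusted p = 0.0309), the call closest to the threshold. It was lost without day 22, 30, 36 or 40, with differences from -2.02 to -2.85 (limma adjusted p = 0.0534 to 0.0839), at a pseudocount of 5 (0.0517), without the day block (0.05004) and over days 6 to 30 (0.119). Fbxo15 was also lost over days 6 to 30 (limma adjusted p = 0.0676), and the other 5 calls held there. Fibroblast marker sums were 38959 to 83854 without BrdU against 4338 to 50205 with all chemicals. Endoderm marker sums were 2361 to 3156 against 3136 to 17550, with 4347 in MEF. The part of such cells in these differences was not tested.

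**Figure D4:**
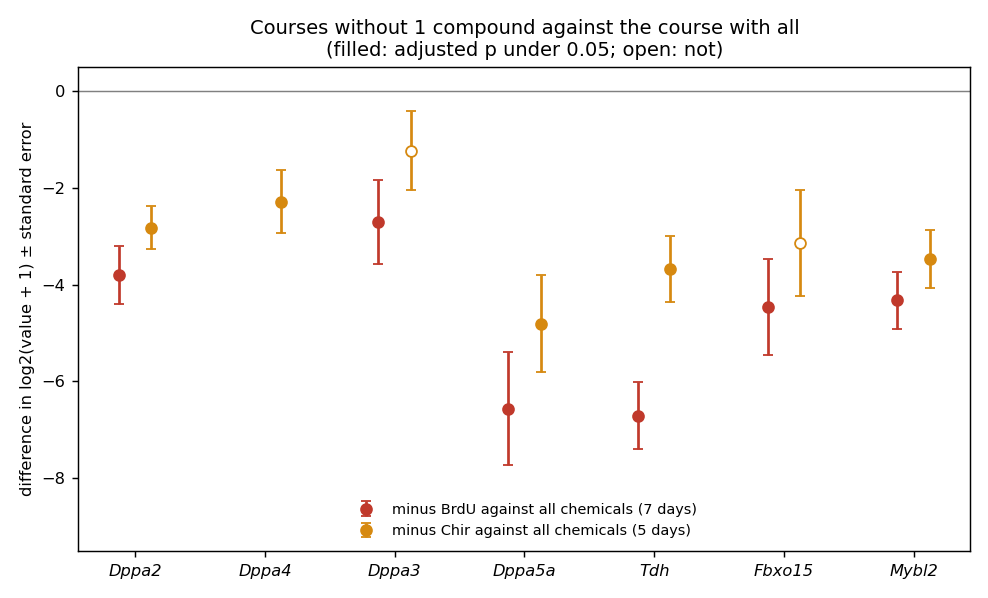
Difference in log2(value + 1) from the course with all chemicals, with its moderated standard error, for the course minus BrdU (7 days) and the course minus Chir (5 days). Filled points passed an adjusted p of 0.05 and open points did not. Dppa4 minus BrdU is not drawn because that course is at 0 throughout. All points lie under 0, and the open ones are Dppa3 and Fbxo15 minus Chir.

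Whether the effect of leaving out BrdU was larger on days 30 to 40 than on days 6 to 22 was tested as a difference of differences. None of the 7 genes was called by limma, beside 13.6% of genes called in either direction. An unadjusted p under 0.05 was held by 3 members (Dppa3, Dppa4 and Fbxo15) and by 30.6% of all genes. Fbxo15 came nearest, at -4.50 ± 1.37 (limma adjusted p = 0.0621), followed by Dppa3 at -3.80 ± 1.22 (limma adjusted p = 0.0715). Fbxo15 passed without day 6 or 22 or at a pseudocount of 5 (limma adjusted p = 0.0187, 0.0395 and 0.0247), Dppa3 without day 30 (0.0162), and Tdh, with the opposite sign, without day 6 (2.21, adjusted p = 0.0230).

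Among the lists, all 18 mitotic targets were lower without BrdU, with a median of -2.83 where all genes had 0.02. Ccna2 (cyclin A) differed by -2.70 ± 0.32, Cenpf of the kinetochore by -2.84 ± 0.36 and Top2a (topoisomerase) by -3.72 ± 0.48. Foxm1, which works with Mybl2 at these promoters, was 1 of 4 of the 13 MuvB and DREAM genes called lower (-1.76 ± 0.22), with Lin54 (-1.07 ± 0.17) and Lin9 (-1.36 ± 0.28), both of MuvB. Myb, a relative of Mybl2, was not called (-0.65 ± 0.70, adjusted p = 0.480).

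Over all 16308 genes tested, 3513 were called lower and 3433 higher without BrdU. Of the 20 threonine and one-carbon genes, 7 were lower and 1 higher (median -0.15). Gldc showed the smallest p, at -4.25 ± 0.45, and stood there at 26 on day 22 and 10 on day 40. Shmt1 differed by -1.84 ± 0.26, while Amt did not pass (-0.49 ± 0.50, adjusted p = 0.450). Of the 11 DNA methylation genes, 9 were lower and 1 higher (median -1.17), with Uhrf1 at -4.07 ± 0.69, Dnmt3a at -1.53 ± 0.24 and Dnmt1 at -1.17 ± 0.21. Of 26 pluripotency genes 17 were lower and none higher, with Sall4 at -6.03 ± 0.55 and Lin28a at -7.00 ± 0.75. Nanog was not called (-2.88 ± 1.41, adjusted p = 0.126). Of 16 germ cell genes 9 were lower, led by Kit (-4.57 ± 0.61), and of 12 SCF genes 6 were lower and 2 higher, led by Ccnf (-2.86 ± 0.42).

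Without Chir the genes stayed low as well, with Tdh and Dppa5a showing some level. Tdh stood at 0, 6, 18, 10 and 30 on the 5 days. Dppa5a stood at 0, 1, 1, 2 and 16, and Mybl2 at 36, 20, 20, 21 and 39. Dppa2 stood at 0, 0, 2, 2 and 1, and Dppa4 at 0 on 4 days and 1 on day 30. Dppa3 stood at 2, 2, 0, 1 and 0, and Fbxo15 at 4, 0, 0, 0 and 4.

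Against the full course on the same 5 days, 5 of the 7 genes were called lower, beside 12.9% of the 16248 genes tested. They were Dppa5a (-4.81 ± 1.005, limma adjusted p = 0.0187), Tdh (-3.69 ± 0.68, 0.0151), Mybl2 (-3.47 ± 0.60, 0.0136), Dppa2 (-2.83 ± 0.45, 0.0114) and Dppa4 (-2.29 ± 0.65, 0.0393). Fbxo15 (-3.15 ± 1.10, adjusted p = 0.0688) and Dppa3 (-1.24 ± 0.82, adjusted p = 0.278) were not called. Dppa3 stood at 0, 1, 4, 11 and 10 on these days of the full course. This comparison shares the full course libraries with that of BrdU, so the estimates are given side by side only.

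All 5 calls were lost without day 18 (limma adjusted p = 0.0658 to 0.132) and without day 22 (0.05998 to 0.142). Without day 18 the differences were -2.69 for Dppa2, -2.03 for Dppa4, -4.11 for Dppa5a, -3.55 for Tdh and -3.15 for Mybl2. Over all genes, 25 were called without day 18, against 4298 with all 5 days. Dppa4 was also lost without day 12 (0.0666) or 30 (0.0955), Dppa5a without day 30 (0.05003) and Tdh without the day block (0.0507). Fbxo15 passed without day 6 (0.00521), at a pseudocount of 5 (0.0476) and in 1 fit over the 19 course libraries (0.0148). Fibroblast marker sums were 8784 to 33999 without Chir, and endoderm marker sums were 2331 to 3067; their part was not tested.

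Of the 18 mitotic targets 14 were lower without Chir (median -1.48, all genes 0.01), with Ccna2 at -2.08 ± 0.37 and the mitotic kinase Plk1 at -2.16 ± 0.46. Foxm1 was lower as well (-0.98 ± 0.27, limma adjusted p = 0.0356). Of 24 pluripotency genes 10 were lower (median -1.71), with Klf4 at -1.81 ± 0.25 and Tfcp2l1 at -3.66 ± 0.55. Of the 20 threonine and one-carbon genes 4 were lower and 3 higher, and Gldc did not pass (-1.43 ± 0.59, adjusted p = 0.108). Over all 16248 genes tested, 2097 were called lower and 2201 higher. Of 11 genes of the 2-cell stage 3 were higher and none lower. They were Tdpoz4, Usp17la (2.41 ± 0.45) and Usp17ld (2.37 ± 0.53), genes of repeated families whose reads may be split. Tdpoz4 is listed at 0 on the 5 days of the full course and at 10 on day 30 without Chir.

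The courses without Chir and without BrdU were compared with each other over the 5 shared days. Of the 5 members tested 1 was called, Tdh, which stood at 0 on all 5 days without BrdU and was higher without Chir on 4 of the 5 (limma adjusted p = 0.0176), beside 16.9% of genes called higher. The call was lost with day 18 or 22 left out (limma adjusted p = 0.0716 and 0.0621). Mybl2 differed by 0.25 ± 0.29, within its spread over days (limma adjusted p = 0.548), while 7 of the 18 mitotic targets were higher without Chir and none lower, with Cdc20 at 1.71 ± 0.22. Gldc was higher without Chir as well (2.54 ± 0.39, limma adjusted p = 0.00371). Dppa2 and Dppa4 were too low in both courses to be tested.

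Within each of these courses no member had a called trend. Without BrdU, Dppa3 and Mybl2 had enough signal to be tested, and Mybl2 had a slope of -0.46 ± 0.11 per 10 days, with an unadjusted p of 0.00328 and a limma adjusted p of 0.105. It was 1 of 2 members tested with an unadjusted p under 0.05, a level that 14.6% of all genes reached. There 0.875% of 15886 genes were called in either direction, and 9 of the 18 mitotic targets fell, among them Top2a (-1.25 ± 0.14), Cdk1 (-1.22 ± 0.15) and Ccnb2 (-1.08 ± 0.14). Without Chir 5 members were tested and none was called by limma, beside 0.2% of 16004 genes. An unadjusted p under 0.05 was held by 2 of the 5, Dppa5a and Tdh, and by 21.6% of all genes. Tdh had a slope of 1.81 ± 0.35 (limma adjusted p = 0.0829), and Mybl2 one of -0.19 ± 0.23 (limma adjusted p = 0.668).

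In CiPSC all 7 genes were high, with different spread. Tdh stood at 2170, 1924, 2108, 2424, 3096 and 2556 in CiPSC 1 to 6 (mean 2380 ± 418, SD, n = 6). Mybl2 stood at 2629, 2214, 2629, 3084, 2760 and 3090 (2734 ± 329). These 2 genes varied least, with an SD of log2(value + 1) of 0.24 and 0.18. Fbxo15 stood at 746, 1169, 716, 931, 1127 and 904 (932 ± 188) and Dppa4 at 257, 314, 338, 428, 310 and 264 (318.5 ± 62.0). Their SDs of 0.29 and 0.27 lay near the 0.30 of the median gene, taken over 9712 genes with a CiPSC mean of at least 50.

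Dppa2 stood at 374, 348 and 374 in CiPSC 1 to 3 and at 610, 726 and 674 in CiPSC 4 to 6 (518 ± 171, SD, n = 6). Dppa3 varied most, at 473, 563, 153, 203, 554 and 578 (421 ± 192, SD of log2 0.85), and 3.64% of the 9712 genes had a larger SD. CiPSC 3 and 4 held its low values. Dppa5a stood at the ceiling of 21988 in CiPSC 1, 2, 3 and 5 and at 8307, rank 28 of all genes, in CiPSC 4 and 6. The scale is coarse at its top end, where 21988 is followed by 11346.

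**Figure D5:**
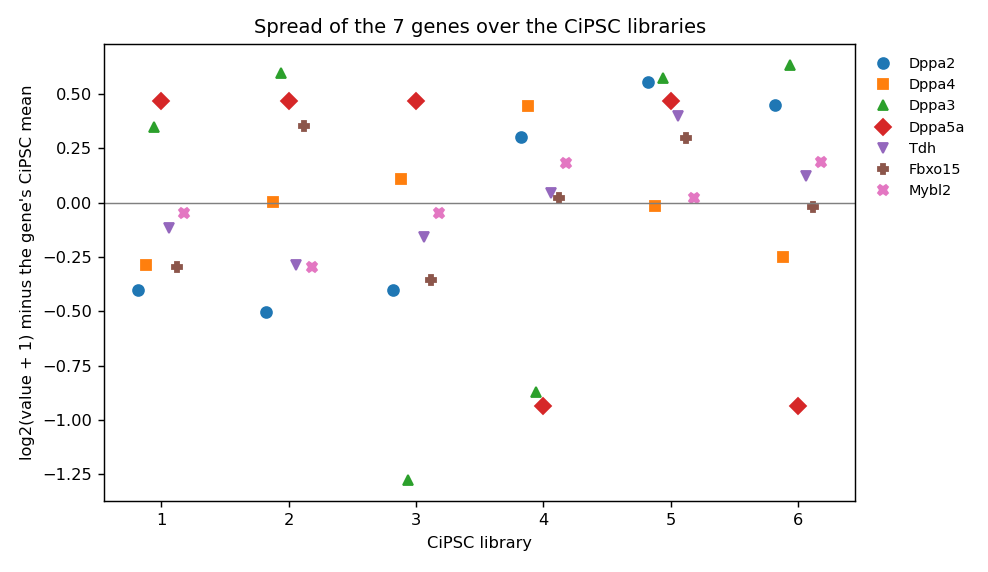
Deviation of log2(value + 1) from each gene's CiPSC mean in the 6 CiPSC libraries. Dppa3 lies more than 0.8 under its mean in CiPSC 3 and 4, Dppa5a lies low in CiPSC 4 and 6, and Dppa2 lies above its mean in CiPSC 4 to 6; Mybl2 spreads least.

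The libraries of days 36 and 40 of the full course lay under CiPSC for 6 of the 7 genes, beside 25.6% of 16388 genes called lower. Dppa5a differed by -4.05 ± 0.45 log2 units (limma adjusted p = 8.28e-05), a size that the ceiling in CiPSC may understate. Dppa2, at 46 and 54, differed by -3.28 ± 0.37 (limma adjusted p = 9.6e-05), and Tdh, at 272 and 284, by -3.08 ± 0.17 (limma adjusted p = 2e-06). Dppa4 differed by -2.26 ± 0.29, Fbxo15 by -2.11 ± 0.27 and Mybl2 by -1.69 ± 0.25 (limma adjusted p = 0.000195, 0.00021 and 0.000491).

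Dppa3 was the exception, with 121 and 227 against 153 to 578 in CiPSC. The groups overlapped and the difference of -1.16 ± 0.54 was not called (limma adjusted p = 0.105), although it was without CiPSC 3, its lowest library (0.0268). On days 36 and 40 the fibroblast marker sum was 20204 and 21034 and the endoderm sum 14402 and 11978, against at most 617 and 240 in CiPSC. The part of such cells in the members' lower levels was not tested. Of the lists, 16 of 18 mitotic targets, 15 of 20 threonine and one-carbon genes and 19 of 26 pluripotency genes were lower than in CiPSC, with medians of -1.73, -1.37 and -2.13 where all genes had -0.07.

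The last 2 libraries without BrdU lay under CiPSC for all 7 genes, beside 31.2% of genes called lower. Mybl2 differed by -7.55 ± 0.25 (limma adjusted p = 2.43e-08) and Tdh by -9.61 ± 0.17 (limma adjusted p = 2.27e-09). Dppa5a differed by -13.0 ± 0.45 (limma adjusted p = 2.71e-08). Both comparisons use the same 6 CiPSC libraries. The labels name no batch, and a batch of its own for CiPSC cannot be told apart from the difference between the groups.

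The genes whose pattern was most like each member were found by Pearson correlation of log2(value + 1) over the 26 libraries, among 16662 genes. The libraries share courses, days and the gap between CiPSC and the rest, so these values are descriptions. Zfp42, also called Rex1 and a marker of pluripotent cells, was first for Dppa4 (0.99), Dppa5a (0.98) and Fbxo15 (0.99), and second for Dppa2 (0.99) after Arl14epl. Dppa3 was nearest to 1700013H16Rik (0.98), Mybl2 to Orc1 and Pold1 (0.98 each), which act in DNA replication, and Tdh to Msh6 (0.96), of mismatch repair.

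Among the members, Dppa4 was the nearest to Dppa2, Dppa5a and Fbxo15 (0.98 each), and Dppa3 and Tdh were the least alike (0.84). Over the 20 libraries without CiPSC, the 3 nearest genes stayed the same in 2 of 3 cases for Dppa4 and Mybl2, in 1 for Dppa3 and Fbxo15, and in none for Dppa2, Dppa5a and Tdh. There Tdh was nearest to Lin28a (0.97), an RNA-binding protein of stem cells, and Foxa2 (0.96), one of the endoderm markers summed above. Dppa3 and Tdh stood at 0.61.

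On the chromosome, members were compared with the 2 nearest genes of the table on each side. Beyond the Dppa4 and Dppa2 pair lies Morc1, a germ cell gene, which rose over the full course as they did (1.61 ± 0.17, limma adjusted p = 0.00185), while Nectin3 on the other side did not (-0.23 ± 0.07, adjusted p = 0.0559). Morc1 was not called without BrdU (-1.68 ± 0.84, adjusted p = 0.132). Dppa3 lies between Gdf3, a growth factor of pluripotent cells (1.38 ± 0.32, limma adjusted p = 0.0212), and Nanog (1.99 ± 0.46, limma adjusted p = 0.0193), and both rose. Slc2a3, the glucose transporter beyond Nanog, rose (1.24 ± 0.24, limma adjusted p = 0.00990) and was lower without BrdU (-3.44 ± 0.55, limma adjusted p = 0.00193). Apobec1 on the other side fell (-0.60 ± 0.13, limma adjusted p = 0.0157) and was higher without BrdU (2.44 ± 0.34, limma adjusted p = 0.00116). Gdf3 and Nanog were not called without BrdU (limma adjusted p = 0.0907 and 0.126).

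Of the neighbours of Dppa5a (Gsta1, Gsta2, Ooep, Ddx43) 1 had a called trend. This was Ooep, another KH-domain gene, which rose (0.97 ± 0.18, limma adjusted p = 0.00873) and was lower without BrdU (-2.71 ± 0.47, limma adjusted p = 0.00259). The level of Ooep was 14 on day 22 and 55 on day 40, and averaged 692.5 in CiPSC. None of the 4 neighbours of Tdh (Gata4, Fam167a, Mtmr9, Xkr6) had a called trend. The slope of Gata4 was 1.76 ± 0.53 (limma adjusted p = 0.0530), beside the uncalled 1.58 ± 0.56 of Tdh. Gata4, an endoderm regulator, stood at 2768 on day 22 of the full course and 1557 on day 40 but at 12.3 on average in CiPSC, where Tdh was highest. Gata4 (-7.16 ± 0.71, limma adjusted p = 0.000451) and Fam167a (-2.56 ± 0.44, limma adjusted p = 0.00251) were lower without BrdU, while Mtmr9 and Xkr6 were not called. Fbxo15 lies at chr18:84934782-84981473 (plus strand, 10 exons). Its neighbours (Fam69c, Cyb5a, Timm21, Neto1) had no called trend. Without BrdU, Cyb5a (1.08 ± 0.18, limma adjusted p = 0.00217) and Fam69c (0.83 ± 0.27, limma adjusted p = 0.0329) were higher, opposite to Fbxo15. Timm21 and Neto1 were not called there. Timm21 lies inside the Fbxo15 gene, so reads of the 2 may be mixed, and it stood at 64 in MEF and 27.2 on average in CiPSC, where Fbxo15 was highest. Of the neighbours of Mybl2 (Srsf6, Ift52, Gtsf1l, Tox2) 1 rose with day, Gtsf1l (1.02 ± 0.29, limma adjusted p = 0.0403). Srsf6 was lower without BrdU (-0.54 ± 0.17, limma adjusted p = 0.0277), and the others were not called there.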

How the data were processed

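Total RNA (TRIzol) was sequenced with a TruSeq RNA kit on an Illumina NextSeq instrument, per the labels' protocols. Per the submitters' processing notes, the tools were bcl2fastq, RSEM and Bowtie2 and the genome mm10. Versions, annotation, normalization and filters are not given in the sources used here. The table the authors deposited covers 16718 genes and 26 libraries, and its values are treated as a score: quantile-normalized and rounded to whole numbers, as read from their equal medians (76 to 77) and equal maxima. The table's name says CPM, which these values contradict. The depth is therefore unknown, no detection floor can be given, and genes at 0 are only listed at 0.

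Values were analysed as log2(value + 1) with limma 3.58.1 in R 4.3.3, with an intensity trend, for genes whose mean was 1 or more in the fitted libraries. Calls needed a two-sided Benjamini-Hochberg adjusted p under 0.05 over all genes tested. On this scale changes of low genes are understated. Course comparisons used day as a block. Trends used day as a number with MEF at day 0. Late libraries of both courses and CiPSC shared 1 fit. The scripts were tested on simulated data.

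Positions and copies come from GENCODE M21 (mm10), promoters from RefSeq (GRCm38.p6). The members and the lists were chosen with earlier results of these data known. All 7 members are named. From each list, up to 3 called genes with the smallest p and up to 2 uncalled genes with the largest change could be named. The 3 genes most alike and the 2 nearest genes on each side were taken by the stated measures. Alternatives were a pseudocount of 5, a minimum mean of 5 or none, no intensity trend, no day block, days 6 to 30 only, 1 fit over 19 libraries, and leaving out each library or day.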

Additional observations from a re-analysis of the deposited data

How the results depend on the processing

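Over 723 alternative values for 61 results on single members, 682 kept their side of the threshold, 31 lost a call and 10 gained one. No result changed direction where it was called under either setting. Changes of direction among uncalled results were not counted. Over days 6 to 30 with MEF, the full course trend called 2 members (6 with all days) and 1115 genes (2729), and the trend without BrdU called 0 genes (139). Over days 6 to 30, minus BrdU against full called 3735 genes (6946). Without the intensity trend, the trend without Chir called 0 genes (32). In 1 fit over 19 libraries, minus Chir against full called 6895 genes (4298). At a pseudocount of 5, the late against early effect of BrdU called 1 member (0). With each day or library left out in turn, genes called ranged from 1377 (without day 36) to 2862 for the full course trend, from 0 (without day 6 or 36) to 1095 (without MEF) for the trend without BrdU, and from 0 (without day 6, 12, 18 or 22) to 142 (without day 30) for the trend without Chir. Minus Chir against full ranged from 0 to 6 members and from 25 (without day 18) to 4994 genes. Minus Chir against minus BrdU ranged from 0 to 1 member and from 2772 (without day 18) to 4783 genes (5176). The late against early effect of BrdU ranged from 0 to 2 members and from 713 (without day 40) to 2472 genes (2218). Days 30 to 40 against 12 to 22 of the full course ranged from 0 to 2 members and from 892 (without day 18) to 2281 genes (2367). Late full against CiPSC ranged from 6 to 7 members and from 4981 (without day 36) to 8052 genes (7885). Leaving out a day or library also leaves fewer samples, and beyond that the cause was not tested. The labels give the courses no shared replicate numbers, and their libraries were paired by day, the block of the course comparisons. The unknown depth and the differing share of genes at 0 limit what can be said of members at 0 to 4.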

Other observations

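Dppa1, a further gene of the Dppa family outside the 7, was chosen after its values were seen, so its pattern is given with no test. It stood at 0 in MEF and on days 6, 12 and 18 of the full course, at 2 on day 22, and at 12, 22 and 24 on days 30, 36 and 40. In CiPSC it stood at 0 in 5 libraries and at 5 in CiPSC 5, under both late libraries of the course, whereas each of the 7 members had a higher mean in CiPSC than on those days. Without BrdU it stood at 0 or 1, and without Chir at 0 on 4 days and at 3 on day 30. All of its values are low. Its nearest copy is the long noncoding RNA Gm12171, with 90.4% identity over 1177 bases.

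Among the CiPSC libraries, the lowest for Dppa3, CiPSC 3 (153), was also the lowest for Nanog, at 2762 against 4208 to 8314 in the other 5, and for Sox2, at 1490 against 1875 to 2167. The sum of the 6 pluripotency markers was lowest there too, at 12447 against 14093 to 19056. Pou5f1, at 4959 there, lay within the 4501 to 5522 of the others, and Zfp42, at 986 there, lay above the 972 of CiPSC 2. CiPSC 4 (Dppa3 at 203) shared its Nanog value of 4208 with CiPSC 2 (Dppa3 at 563). These are single libraries with no test.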
